A study of Mus musculus with 8 samples.

Results

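Non-muscle myosin II, the motor that pulls on actin filaments outside the sarcomere, and the phosphatase that switches it off were followed in cultured mouse myotubes after deletion of *RhoA*. The members are 10 genes chosen by name and role, out of 19505 genes with a symbol on the arrays. They are the heavy chains *Myh9*, *Myh10* and *Myh14*, the regulatory light chains *Myl9*, *Myl12a* and *Myl12b*, the light chain kinase *Mylk*, the targeting subunits *Ppp1r12a* and *Ppp1r12b* of myosin phosphatase, and its catalytic subunit *Ppp1cb*. All 10 were measured, each by 1 row of the array, and no filter on low values was applied.

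Myoblasts were sorted by fluorescence from hindlimb muscle of adult *RhoA* flox/flox mice that carry the Pax7-nGFP reporter, which labels satellite cells. They were differentiated for 3 days into myotubes and then transduced with adenovirus at a multiplicity of infection of 100, and RNA was taken 48 h later. The Ad-Cre-mCherry virus carries the Cre recombinase, which cuts out the floxed exon 3 of *RhoA*, and the Ad-mCherry virus carries the fluorescent protein without Cre. Each group has 4 arrays, numbered 1 to 4, and RNA was amplified from 25 ng per sample before labelling. Both groups share the floxed alleles, the reporter and the viral infection, so effects of Cre and of *RhoA* loss cannot be told apart. Whether the 4 arrays of a group come from separate cultures is not stated in the labels, so p-values measure the spread between these arrays.

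Myosin II is a hexamer of a pair of heavy chains, a pair of essential light chains and a pair of regulatory light chains. Phosphorylation of the regulatory light chain by myosin light chain kinase and other kinases lets the motor assemble into filaments and contract. Myosin phosphatase removes that phosphate, and signalling from active RhoA inhibits the phosphatase through its targeting subunit. In muscle cells these motors work at the cell cortex, in stress-fibre-like bundles and in early myofibril assembly, beside the far more abundant sarcomeric myosins.

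The sequences just upstream of 4 of these genes are given because the results turn on them: *Myl12a* and *Ppp1r12a*, the members that were lower with Ad-Cre-mCherry, *Myl12b*, the close relative and neighbour of *Myl12a*, and *Myl9*, the light chain with the widest spread over the arrays. Each is the 250 bases before the annotated start in RefSeq, build GRCm38.p6, read 5′ to 3′ on the strand of the gene. *Myl12a* (chr17:71002534-71002783) and *Myl12b* (chr17:70990517-70990766) lie on the minus strand, and *Ppp1r12a* (chr10:108161848-108162097) and *Myl9* (chr2:156775214-156775463) on the plus strand. Capitals mark a CArG box, the element that serum response factor recognises.
Myl12a: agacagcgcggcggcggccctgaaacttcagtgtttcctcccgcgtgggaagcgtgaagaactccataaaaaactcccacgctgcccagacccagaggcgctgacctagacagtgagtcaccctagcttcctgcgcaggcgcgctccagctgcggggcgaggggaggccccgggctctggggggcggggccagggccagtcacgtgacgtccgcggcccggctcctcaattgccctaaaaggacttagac
Myl12b: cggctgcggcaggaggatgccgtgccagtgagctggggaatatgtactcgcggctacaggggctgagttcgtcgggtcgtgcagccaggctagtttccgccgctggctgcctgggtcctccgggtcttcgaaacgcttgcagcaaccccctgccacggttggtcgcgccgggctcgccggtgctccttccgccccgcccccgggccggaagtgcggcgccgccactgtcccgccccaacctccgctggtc
Ppp1r12a: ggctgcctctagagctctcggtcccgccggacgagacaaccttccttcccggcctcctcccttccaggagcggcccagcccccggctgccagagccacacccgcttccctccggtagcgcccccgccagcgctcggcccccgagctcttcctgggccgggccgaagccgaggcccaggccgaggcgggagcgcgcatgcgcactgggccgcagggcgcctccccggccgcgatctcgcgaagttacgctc
Myl9: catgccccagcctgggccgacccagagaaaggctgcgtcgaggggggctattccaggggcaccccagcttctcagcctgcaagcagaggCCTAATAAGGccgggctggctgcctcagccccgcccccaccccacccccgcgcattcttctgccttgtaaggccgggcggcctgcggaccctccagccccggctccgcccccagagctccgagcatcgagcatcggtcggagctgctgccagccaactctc

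The windows of all members were searched on both strands for the CArG box and for CATTCC, the element of the Tead factors. A window matched for all 10 members, with 11 windows because *Ppp1r12b* has 2 starts. The CArG box was found in the window of 1 member, *Myl9*, with its first base 161 bases before the start, and in 1.47% of all 32851 promoter windows of the same length. CATTCC was found in windows of 4 members, *Myh10*, *Mylk*, *Ppp1r12b* and *Ppp1cb*, and in 12.6% of all windows. Neither motif was found in the windows of *Myl12a*, *Myl12b* or *Ppp1r12a*, which says only that these letters are not there.

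*RhoA* checks the labels. Its log2 level was 9.99, 10.87, 10.87 and 10.23 on Ad-Cre-mCherry arrays 1 to 4, against 11.16, 11.39, 11.08 and 11.39 on Ad-mCherry arrays 1 to 4. The groups did not overlap, and the log2 fold change, Ad-Cre-mCherry over Ad-mCherry in this and every fold change given, was -0.77 with a standard error (SE) of 0.23. Whether the probes of this row lie in the deleted exon is not known here, so the remaining signal does not measure the remaining intact transcript. Skeletal muscle markers were above the array median on every array for 12 of 12 listed genes, with a list mean of 14.96 to 16.14 on the log2 scale on Ad-Cre-mCherry arrays and 15.4 to 16.3 on Ad-mCherry arrays. Of these 12, *Myog*, a myogenic transcription factor, and *Myh3*, the embryonic myosin heavy chain, passed the thresholds of the study and were lower with Ad-Cre-mCherry. Those thresholds are 1.2-fold or more with p under 0.05 before adjustment, in limma. With the replicate number as a block both also passed after adjustment (limma, adjusted p = 0.0396 each). At the thresholds of the study the blocked fit also placed *Myh8* and *Ttn* lower, 4 of 12 with *Myog* and *Myh3*. It placed 1 of 12 higher, the creatine kinase *Ckm*, with a log2 fold change of 0.62 that was above 0 in all 4 replicate numbers. Over all genes the blocked fit called 8.2% lower and 6.54% higher. The list means of endothelial markers were 3.63 to 4.00 on Ad-Cre-mCherry arrays and 3.52 to 3.82 on Ad-mCherry arrays. Those of leukocyte markers were 3.89 to 4.11 on Ad-Cre-mCherry arrays and 3.83 to 4.25 on Ad-mCherry arrays. Both lists lay below 4.78 to 4.87, the array medians over all rows, named or not. Calls of single genes above or below the array median, here and in other paragraphs, use the median of the rows with a gene symbol. Fibroblast markers had list means of 4.27 to 4.82 on Ad-Cre-mCherry arrays and 4.31 to 5.14 on Ad-mCherry arrays, and proliferation markers 3.68 to 4.49 on Ad-Cre-mCherry arrays and 3.98 to 5.30 on Ad-mCherry arrays. Satellite cell markers had 6.45 to 7.13 on Ad-Cre-mCherry arrays and 6.77 to 7.43 on Ad-mCherry arrays, and 0 genes of these 5 lists passed the thresholds. With the block 4 of 6 satellite cell markers (*Myf5*, *Vcam1*, *Cdh15* and *Itga7*) and 3 of 7 proliferation markers (*Cdk1*, *Bub1* and *Birc5*) passed them. All of these were lower with Ad-Cre-mCherry, against 8.2% of all genes lower in that fit. Some are dim: *Bub1* lay below the array median on all 8 arrays, *Birc5* and *Vcam1* on 3 each and *Cdk1* on 2. With the block 0 endothelial, leukocyte or fibroblast markers passed. The satellite cell and proliferation markers that passed thus moved in the same direction as *Myl12a* and *Ppp1r12a* in that fit. So did 4 skeletal muscle markers, while *Ckm* moved the other way. The part of these markers in the result was not tested.

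In Ad-Cre-mCherry transduced *RhoA* flox/flox myotubes, a regulatory light chain and a phosphatase targeting subunit fell past the thresholds of the study, and the other 8 members did not pass them. *Myl12a* was at 48.5% and *Ppp1r12a* at 48.2% of their Ad-mCherry level on the deposited scale. At these thresholds 2 of 10 members were lower, against 3.5% of all genes, and 0 of 10 were higher, against 2.92% of all genes. After Benjamini-Hochberg adjustment over all genes in limma, 0 of 10 members and 0% of all genes passed 0.05, while 2 members and 1252 genes had an unadjusted p under 0.05. With the replicate number as a block, limma again placed 2 of 10 members lower, against 8.2% of all genes, and 0 higher, against 6.54% of all genes. After adjustment in the blocked limma fit 0 members passed, with 2 members at an unadjusted p under 0.05, against 0.323% of all genes past the adjusted threshold. In such bulk RNA, fewer cells of a type and less RNA per cell cannot be told apart.

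**Figure D1:**
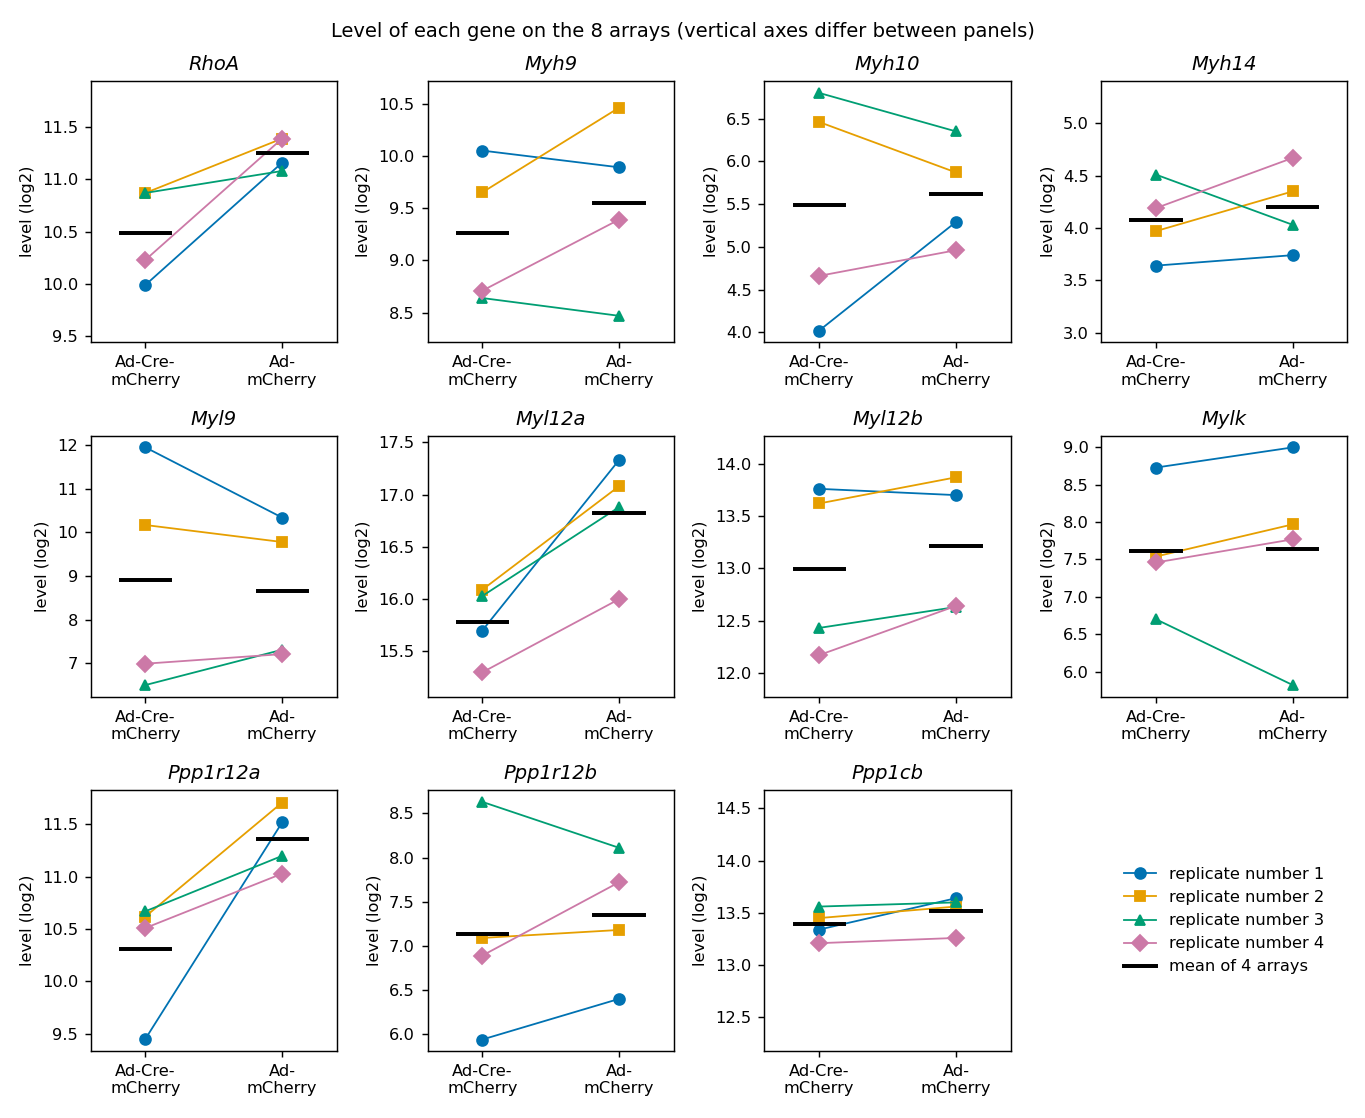
Log2 level of *RhoA* and the 10 members on each of the 8 arrays, with Ad-Cre-mCherry on the left and Ad-mCherry on the right of each panel; lines join arrays with the same replicate number, black bars are means of 4 arrays, and the vertical axes differ between panels. The 4 *Ppp1r12a* values with Ad-Cre-mCherry sit at 9.45 to 10.67, all below the Ad-mCherry values of 11.03 to 11.71.

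The heavy chains carry the motor domain and set the kinetics of the filament. *Myh9*, the heavy chain of non-muscle myosin IIA, had log2 levels of 10.05, 9.65, 8.64 and 8.71 on Ad-Cre-mCherry arrays 1 to 4, against 9.89, 10.46, 8.47 and 9.39 on Ad-mCherry arrays 1 to 4. Its groups overlapped, and the log2 fold change was -0.29 (SE 0.46, 95% interval -1.33 to 0.75). Within replicate numbers the log2 difference was above 0 in numbers 1 and 3 and below 0 in numbers 2 and 4. *Myh10*, the heavy chain of non-muscle myosin IIB, read 4.02, 6.46, 6.80 and 4.66 with Ad-Cre-mCherry, against 5.29, 5.87, 6.35 and 4.96 with Ad-mCherry, which gives a log2 fold change of -0.13 (SE 0.61, 95% interval -1.52 to 1.25). Its Ad-Cre-mCherry values spanned the whole range of the Ad-mCherry values. *Myh14*, the heavy chain of non-muscle myosin IIC, read 3.64, 3.97, 4.51 and 4.19 with Ad-Cre-mCherry and 3.74, 4.35, 4.03 and 4.67 with Ad-mCherry, below the array median on all 8 arrays. How far so dim a row could show a decrease is not known here, and the log2 fold change was -0.12 (95% interval -0.70 to 0.46).

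Heavy chains were also set against each other on the same array, which asks whether they changed unequally. The log2 difference *Myh9* minus *Myh10* shifted by -0.16 between Ad-Cre-mCherry and Ad-mCherry arrays, and did not pass a two-sided exact permutation test of 4 against 4 (adjusted p = 0.971 over 8 such contrasts). *Myh10* lay below the array median on 2 of the 8 arrays, which limits this contrast. The contrasts with *Myh14*, counted among the 8, cannot show unequal change because that row is not known to be above background.

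The regulatory light chains are the subunits that the kinases and the phosphatase act on. *Myl12a*, a regulatory light chain of non-muscle cells, had log2 levels of 15.70, 16.09, 16.03 and 15.30 on Ad-Cre-mCherry arrays 1 to 4 (mean 15.8 ± 0.36, SD, n = 4), against 17.33, 17.08, 16.88 and 16 on Ad-mCherry arrays 1 to 4 (mean 16.8 ± 0.58, SD, n = 4). Number 4 had the lowest value of each group, and its Ad-mCherry value of 16 lay below the Ad-Cre-mCherry values of numbers 2 and 3, so the groups overlapped slightly. Within each replicate number *Myl12a* was lower with Ad-Cre-mCherry, with log2 differences of -1.63, -0.99, -0.85 and -0.70. The log2 fold change was -1.04 (SE 0.30, 95% interval -1.73 to -0.36), or 2.06-fold lower, with limma's adjusted p = 0.729 and a two-sided exact permutation p = 0.0857. With the replicate block limma gave an unadjusted p of 0.000356 and an adjusted p of 0.0629, just outside the adjusted threshold. On 5 of the 8 arrays *Myl12a* was above 16 on the log2 scale, where each array held 254 to 283 values, and whether the scale is still linear there was not tested.

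*Myl12b*, whose protein is nearly identical to that of *Myl12a*, read 13.76, 13.62, 12.43 and 12.17 with Ad-Cre-mCherry, against 13.70, 13.87, 12.63 and 12.64 with Ad-mCherry. These values split by replicate number and not by group, with a mean of 13.7 in numbers 1 and 2 and 12.5 in numbers 3 and 4. The log2 fold change was -0.22 (SE 0.44, 95% interval -1.22 to 0.79). On the same array, *Myl12a* minus *Myl12b* averaged 2.79 ± 0.73 with Ad-Cre-mCherry and 3.61 ± 0.46 with Ad-mCherry (SD, n = 4 each), a shift of -0.83. That shift was below 0 in all 4 replicate numbers (-1.69, -0.74, -0.65 and -0.23) and did not pass the two-sided exact permutation test (p = 0.114, adjusted p = 0.8 over the 8 contrasts). Without Ad-Cre-mCherry replicate 3 the shift was -1.10 (exact permutation p = 0.0286, unadjusted, the smallest possible with that array left out). That was the only alternative run in which this contrast had a p under 0.05. Without replicate 1 the shift was -0.54. The light chain genes are close relatives, and signal shared between their rows was not tested.

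*Myl9*, the regulatory light chain best known from smooth muscle, was the member with the widest spread. Its log2 level was 11.95, 10.17, 6.50 and 6.99 on Ad-Cre-mCherry arrays 1 to 4, against 10.34, 9.78, 7.31 and 7.21 on Ad-mCherry arrays 1 to 4. The 8 arrays spanned 5.45 log2 units, with a mean of 10.6 in numbers 1 and 2 and 7.0 in numbers 3 and 4. *Myl9* was higher with Ad-Cre-mCherry in numbers 1 and 2 and lower in numbers 3 and 4, so its log2 fold change of 0.24 had a 95% interval of -2.57 to 3.06. It was the only member with a higher mean in Ad-Cre-mCherry transduced myotubes, and that sign depends on the arrays included. Against *Myl12a* on the same array it shifted by 1.29, and against *Myl12b* by 0.46, and neither passed the exact permutation test (adjusted p = 0.8 and 0.952). The shift against *Myl12a* was above 0 in all 4 replicate numbers (3.24, 1.38, 0.04 and 0.48), and the exact test over these pairs gave p = 0.125, the smallest that 4 pairs allow.

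*Mylk* encodes myosin light chain kinase, the calmodulin-dependent enzyme that phosphorylates these light chains. It read 8.73, 7.54, 6.70 and 7.46 with Ad-Cre-mCherry, against 9.0, 7.97, 5.82 and 7.77 with Ad-mCherry. The difference was below 0 in numbers 1, 2 and 4 and was 0.88 in number 3. The log2 fold change was -0.03 (SE 0.65, 95% interval -1.49 to 1.43), and with the replicate block the 95% interval was -0.55 to 0.49, which leaves out a 2-fold change in either direction.

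Myosin phosphatase consists of a catalytic subunit held at myosin by a targeting subunit. *Ppp1r12a*, the targeting subunit MYPT1, had log2 levels of 9.45, 10.62, 10.67 and 10.51 on Ad-Cre-mCherry arrays 1 to 4 (mean 10.3 ± 0.58, SD, n = 4), against 11.52, 11.71, 11.20 and 11.03 on Ad-mCherry arrays 1 to 4 (mean 11.4 ± 0.31, SD, n = 4). The highest Ad-Cre-mCherry value was thus below the lowest Ad-mCherry value, which held for 1 of 10 members and for 1.93% of all genes. The differences within replicate numbers were -2.07, -1.09, -0.53 and -0.52. The log2 fold change was -1.05 (SE 0.29, 95% interval -1.72 to -0.39), or 2.07-fold lower, with limma's adjusted p = 0.729 and a two-sided exact permutation p = 0.0286, the smallest that 4 arrays against 4 allow. With the replicate block, limma's unadjusted p was 0.00207 and its adjusted p 0.105. Array 1 with Ad-Cre-mCherry was the lowest by a wide margin, and without it the log2 fold change was -0.77, still past the thresholds of the study.

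*Ppp1r12b*, the targeting subunit MYPT2 found in heart and skeletal muscle, read 5.94, 7.09, 8.63 and 6.89 with Ad-Cre-mCherry, against 6.4, 7.18, 8.11 and 7.72 with Ad-mCherry. Its groups overlapped, and the log2 fold change was -0.22 (SE 0.56, 95% interval -1.47 to 1.04). *Ppp1r12a* minus *Ppp1r12b* shifted by -0.84 on the same array, and *Mylk* minus *Ppp1r12a*, the kinase against the targeting subunit, by 1.02. Neither shift passed the two-sided exact permutation test (p = 0.286 and 0.4, adjusted p = 0.8 for both). *Mylk* minus *Ppp1r12a* was above 0 in all 4 replicate numbers (1.80, 0.66, 1.41 and 0.21), for which the exact test over pairs gave the same smallest p of 0.125. *Ppp1cb*, the catalytic subunit PP1 beta, also called delta, was the steadiest member, at 13.34, 13.45, 13.56 and 13.21 with Ad-Cre-mCherry and 13.64, 13.56, 13.60 and 13.26 with Ad-mCherry. Its log2 fold change was -0.12 (SE 0.16, 95% interval -0.48 to 0.23), which does not reach a 2-fold change in either direction.

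**Figure D2:**
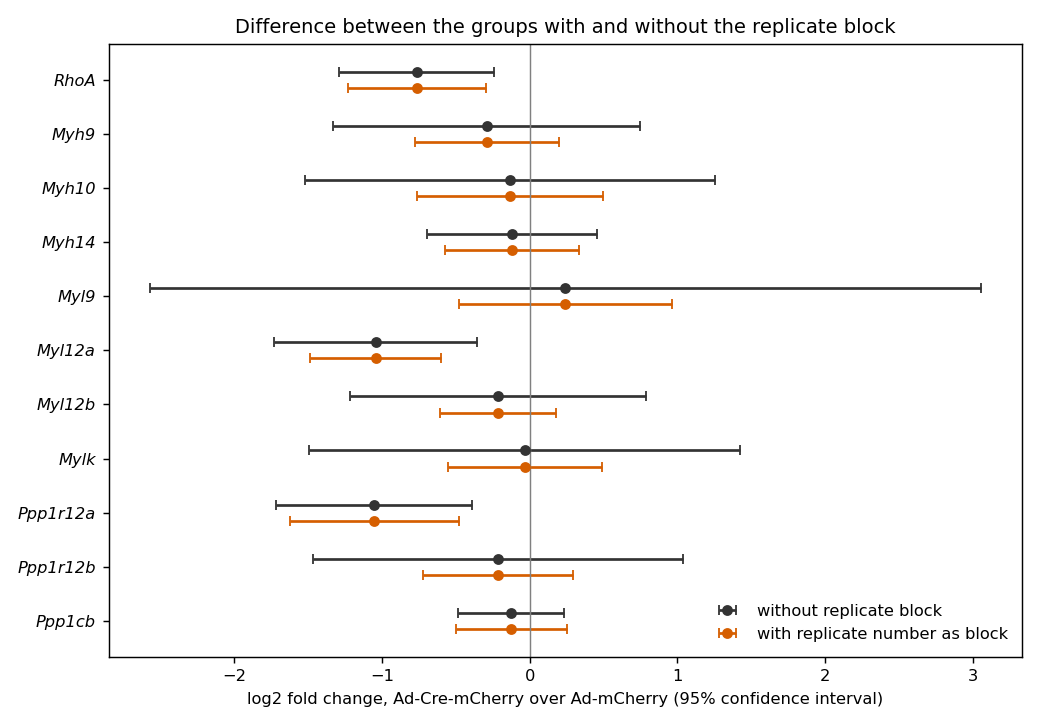
Log2 fold change of Ad-Cre-mCherry over Ad-mCherry for *RhoA* and the 10 members with its 95% confidence interval from limma, without (dark) and with (orange) the replicate number as a block. The intervals of *RhoA*, *Myl12a* and *Ppp1r12a* lie below 0 in both, and that of *Myl9* runs from -2.57 to 3.06 without the block and from -0.48 to 0.96 with it.

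Over the whole group, 9 of 10 members had a lower mean with Ad-Cre-mCherry, against 50.1% of all genes. The median log2 fold change of the members was -0.17, and that of all genes was 0.00. Within replicate numbers, *Myl12a*, *Ppp1r12a* and *Ppp1cb* were lower in all 4, so 3 of 10 members, against 11.1% of all genes. The 8 members other than *Myl12a* and *Ppp1r12a* had log2 fold changes of -0.29 to 0.24, limma adjusted p of 0.909 to 0.995 and two-sided exact permutation p of 0.314 to 1.

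**Figure D3:**
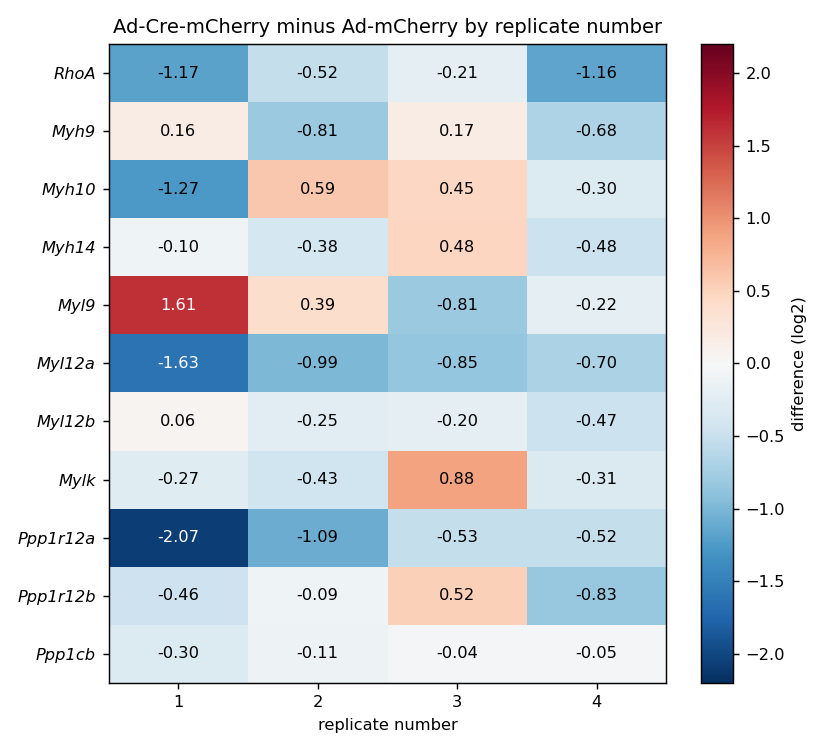
Log2 difference, Ad-Cre-mCherry minus Ad-mCherry, of *RhoA* and the 10 members within each replicate number, blue where lower with Ad-Cre-mCherry and red where higher. *RhoA*, *Myl12a*, *Ppp1r12a* and *Ppp1cb* are below 0 in all 4 columns, and *Myl9* runs from 1.61 in number 1 to -0.81 in number 3.

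The spread of each gene over the 8 arrays was divided between group and replicate number. The group share comes from the same values as the group test, so it is no separate support for the members that passed. For *Myl12a* the group took 60.8% of the sum of squares over the 8 arrays and the replicate number 32.1%, and for *Ppp1r12a* the group took 63.2% and the replicate number 14.0%. For *RhoA* the shares were 63.2% for the group and 18.3% for the replicate number. In the other 8 members the replicate number took 66.4% to 95.2% and the group at most 16.6%. The median member had 2.93% for the group and 83.8% for the replicate number, and the median of all genes was 9.64% for the group and 52.4% for the replicate number.

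**Figure D4:**
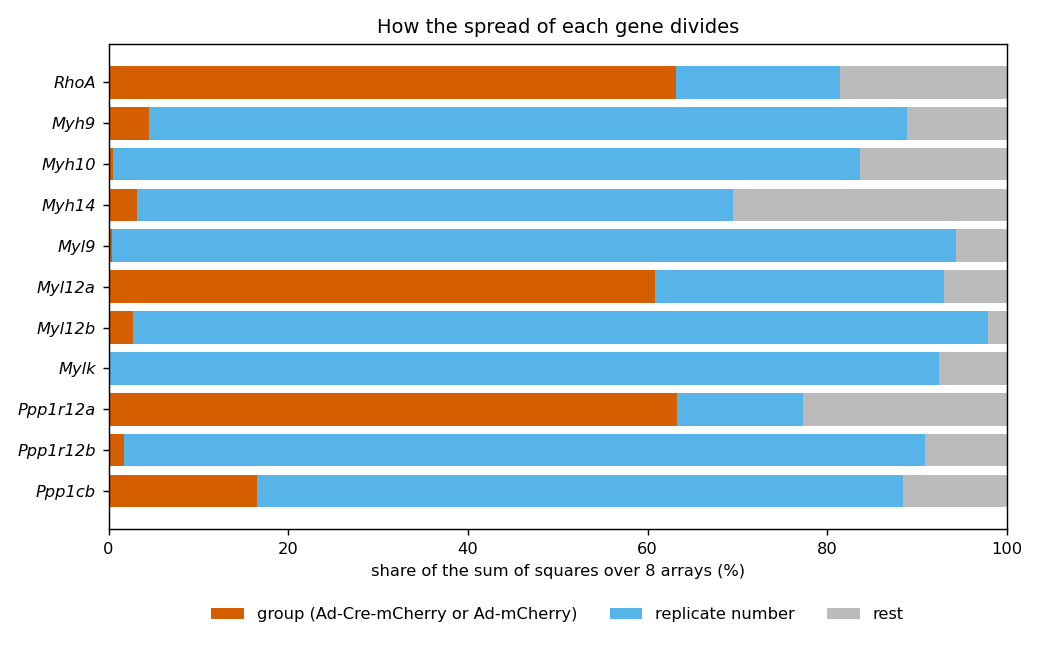
Share of the sum of squares over the 8 arrays, in percent, that goes with the group (Ad-Cre-mCherry or Ad-mCherry), with the replicate number and with neither, for *RhoA* and the 10 members. The group takes over 60% for *RhoA*, *Myl12a* and *Ppp1r12a* and at most 16.6% for the other 8 members.

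*Myh9*, *Myl9*, *Myl12b* and *Mylk* had a mean over both groups that was 1.21 to 3.56 log2 units higher in numbers 1 and 2 than in numbers 3 and 4. *Myl12a* (16.6 against 16.1) and *Ppp1cb* (13.5 against 13.4) were higher there by less. *Ppp1r12b* (6.65 against 7.84), *Myh14* (3.93 against 4.35), *Myh10* (5.41 against 5.69) and *Ppp1r12a* (10.82 against 10.85) were lower in numbers 1 and 2. The smooth muscle markers were split in the same comparison, with 4 of 9 higher and 5 of 9 lower in numbers 1 and 2, and *Acta2* and *Tagln* had the widest differences. *Acta2*, the smooth muscle actin that immature myotubes also make, read 16.73, 15.80, 13.08 and 12.69 with Ad-Cre-mCherry and 18.01, 16.84, 14.66 and 13.48 with Ad-mCherry. Over 9 of 9 smooth muscle markers, 5 above and 2 below the array median on all arrays, the list mean was 8.05, 7.92, 7.53 and 7.46 in numbers 1 to 4. By group it ranged from 7.32 to 8.06 with Ad-Cre-mCherry and from 7.59 to 8.04 with Ad-mCherry, and 0 of 9 passed the thresholds of the study. With the block, *Acta2* was lower with Ad-Cre-mCherry in all 4 replicate numbers (log2 fold change -1.17, limma adjusted p = 0.0428), *Synpo2* was also lower and *Mcam* was higher at the thresholds of the study. *Myh11*, the defining heavy chain of smooth muscle, was dim, at 4.05 to 4.33 with Ad-Cre-mCherry and 4.02 to 4.69 with Ad-mCherry. Of the 12 skeletal muscle markers, 11 were lower in numbers 1 and 2 than in numbers 3 and 4. The 1 that was higher there was *Mymk* (18.76 against 18.3). The creatine kinase *Ckm*, a marker of mature muscle, was lowest in number 1 and highest in number 3. It read 10.43, 12.10, 14.95 and 12.34 with Ad-Cre-mCherry and 9.41, 11.63, 14.16 and 12.13 with Ad-mCherry. What the replicate number stands for is not stated, and the part of these markers in the spread of the members was not tested.

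Over the 8 arrays the genes most like *Myl9*, by Pearson's r among 18459 other genes, were *Gpx1* (0.991), *Snord12* (0.986) and *Trip6* (0.986). *Myh9* was most like *B9d1* (0.987), *Itga3* (0.979) and *Anapc11* (0.972), and *Mylk* most like *Hsd17b12* (0.975), *Rxfp1* (0.971) and *Pip4k2a* (0.970). *Ppp1r12a* was most like *Dhx36* (0.981), *Asb5* (0.981) and *Ccdc50* (0.977). These are descriptions over 8 arrays that share the replicate numbers and the groups, and 53 to 213 genes reached an r over 0.9 with each of these members.

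The rest of the pathway was read from 4 lists of 42 genes besides *RhoA*, of which 38 were measured. At the thresholds of the study 4 of 38 were lower with Ad-Cre-mCherry, against 3.5% of all genes, and 1 was higher, against 2.92%, and 0 passed the adjusted threshold in limma, with 5 at an unadjusted p under 0.05. Of the 16 measured upstream kinases and activators, *RhoA* included, 2 were lower and 1 was higher. The 2 were *Dapk2* and *RhoA* itself, the deleted gene, whose decrease is no result about the list. With the replicate block 3 were lower, *RhoA* again among them, and 1 was higher. That fit called 8.2% of all genes lower and 6.54% higher, and a count that holds *RhoA* cannot be read against these shares. The block added the kinase *Cdc42bpa*, with a log2 fold change of -0.91. *Dapk2*, a calmodulin-dependent kinase able to phosphorylate regulatory light chains, read 6.55, 7.37, 6.84 and 7.27 with Ad-Cre-mCherry, against 8.02, 8.30, 8.14 and 7.75 with Ad-mCherry. The *Dapk2* groups did not overlap, as in 1.93% of all genes in this direction. Its log2 fold change was -1.05 (limma, unadjusted p = 0.00106, adjusted p = 0.680). *Rhoc*, a paralog of *RhoA*, was higher on the log2 scale, at 11.07, 9.78, 9.61 and 9.35 with Ad-Cre-mCherry, against 9.16, 8.91, 8.79 and 9.48 with Ad-mCherry (log2 fold change 0.87, limma unadjusted p = 0.0376). Its difference was above 0 in 3 of 4 replicate numbers.

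Among the other light chains, kinases and calmodulin genes, 6 of 8 were measured. Of these 1 was lower at the thresholds of the study, against 3.5% of all genes, and 0 were higher, against 2.92%. *Calm2*, 1 of the genes that encode calmodulin, the calcium sensor that switches on the kinase, was lower with Ad-Cre-mCherry in all 4 replicate numbers, with a log2 fold change of -0.83. *Calm3*, which encodes the same protein, had a log2 fold change of 0.68, above 0 in all 4 replicate numbers, and passed with the replicate block but not without it. Of the 7 other phosphatase subunits and inhibitors, 0 passed without the block, against the same shares of all genes. Those with the smallest p were *Ppp1ca*, the catalytic subunit PP1 alpha, with a log2 fold change of 0.36, and *Mprip*, which binds the targeting subunit and actin, with -0.42. With the block *Mprip* was lower and *Ppp1r14a*, an inhibitor of the phosphatase, was higher by 0.41. *Ppp1r14a* lay below the array median on all 8 arrays, however. Over all genes the blocked fit called 8.2% lower and 6.54% higher.

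Of 10 partners of the myosin filament, 2 were lower at the thresholds of the study, against 3.5% of all genes. *Septin7*, a filament-forming GTPase, had a log2 fold change of -0.63, and *Myo18a*, an unconventional myosin that joins myosin II filaments, had -0.55. The *Septin7* groups were apart by only 0.03 log2 units, from 14.27 with Ad-Cre-mCherry to 14.3 with Ad-mCherry. Groups apart in this direction were seen in 1.93% of all genes. With the replicate block 5 of 10 partners were lower, against 8.2% of all genes in that fit. The block added *Cald1*, which encodes caldesmon, at -1.03, *Lima1*, an actin bundler, at -0.90, and *Svil*, which encodes supervillin, at -0.73. Each of these 3 was lower in all 4 replicate numbers and overlapped between the groups. Over all 38 genes, the blocked fit had 9 lower, against 8.2% of all genes, and 3 higher, against 6.54% of all genes. The median log2 fold change of the 38 genes was -0.14.

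**Figure D5:**
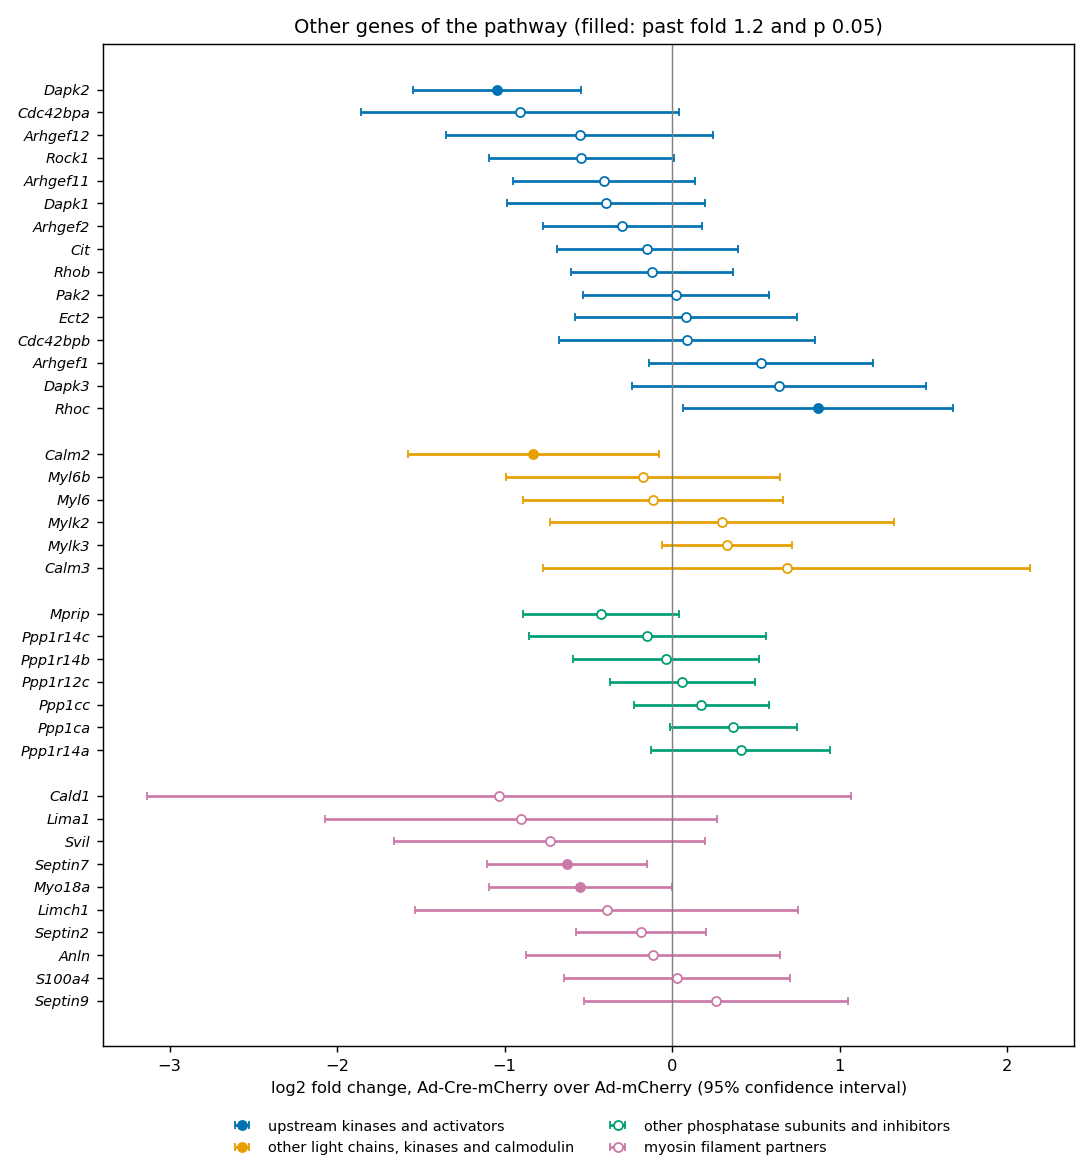
Log2 fold change of Ad-Cre-mCherry over Ad-mCherry with its 95% confidence interval from limma without the block, for the 38 other genes of the pathway, ordered within 4 lists by colour; filled points passed a fold change of 1.2 and an unadjusted p under 0.05. *Dapk2*, *Calm2*, *Septin7* and *Myo18a* are filled on the left and *Rhoc* on the right.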

How the data were processed

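RNA from *RhoA* flox/flox myotubes was hybridised to 8 Affymetrix mouse arrays, 4 with Ad-Cre-mCherry and 4 with Ad-mCherry. The authors made the deposited log2 values with RMA in Affymetrix Expression Console, which corrects background, normalizes by quantiles and summarises probes (versions not given in the sources used here). They run from 2.05 to 19.89. No source says whether more than RMA was done, so fold changes keep the deposited scale. Detection calls were not used. Precision is limited by the number of arrays.

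Of 22206 rows, 19572 have 1 gene symbol, 0 have several and 2634 are unnamed. The brightest row stands for a gene, which leaves 19505 genes. Two-sided tests in limma 3.58.1 (R 4.3.3) were adjusted by Benjamini-Hochberg across all genes, with 0.05 as threshold. Calls at the thresholds of the study need a 1.2-fold change and p under 0.05 before adjustment. The study's methods give no test for the arrays. They name 3 independent cultures, and the labels 4 replicates, all used here. The fit was tested on simulated data drawn without any effect of the replicate number. That test cannot show how the fit behaves where arrays correlate by number. Exact permutation tests enumerated every split of 4 against 4 arrays (Python 3.11.15).

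Arrays with the same replicate number correlated at 0.516 to 0.623 after removal of group means. Arrays with different numbers, taken between the groups only, correlated at -0.424 to 0.128. Removal of group means pushes these down where same-number arrays correlate, so the contrast is partly built in. Each same-number correlation was over 0.1, so the numbers were treated as pairs, and this pairing comes from the data, since no source states it. The members and lists were chosen with earlier results of these data known. Named are all members, *RhoA*, the pathway genes past the thresholds (or the 2 with the smallest p), the 3 genes most like each of 4 members, and markers a result stands beside; genes past only the blocked fit were added after their values were seen. Alternatives were the replicate block, other normalizations, filters, row choices and variance models, and each array or pair left out.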

Additional observations from a re-analysis of the deposited data

Results flagged for a closer look

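*Ppp1r12a* on Ad-Cre-mCherry array 1, at 9.45 on the log2 scale, lay far below the other 3 Ad-Cre-mCherry values (10.51 to 10.67). Its gap to the nearest was 0.869 of the range of the group, above Dixon's limit for 4 values. This was 1 of 22 groups examined, and chance marks about 1 in 20.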

How the results depend on the processing

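*Myl12a* and *Ppp1r12a*, and no other member, passed the thresholds of the study under every alternative run, with log2 fold changes of -1.32 to -0.85 and -1.23 to -0.71 when 1 array or 1 pair was left out (12 settings). *Ppp1cb* stayed at -0.21 to -0.07. In the other members the sign changed: with arrays left out the log2 fold change ran from -0.65 to 0.0125 for *Myh9*, -0.57 to 0.36 for *Myh10*, -0.32 to 0.0375 for *Myh14*, -0.77 to 1.04 for *Myl9*, -0.47 to 0.06 for *Myl12b*, -0.64 to 0.42 for *Mylk* and -0.71 to 0.18 for *Ppp1r12b*. *RhoA* ran from -0.95 to -0.60 and did not pass without replicate 4 (-0.63). Within-array shifts ran from -0.91 to 0.49 for *Myh9* minus *Myh10*, -0.58 to 0.18 for *Myh9* minus *Myh14*, -0.39 to 0.37 for *Myh10* minus *Myh14*, -0.30 to 1.07 for *Myl9* minus *Myl12b*, -1.10 to -0.54 for *Myl12a* minus *Myl12b*, 0.24 to 2.17 for *Myl9* minus *Myl12a*, 0.36 to 1.44 for *Mylk* minus *Ppp1r12a* and -1.22 to -0.46 for *Ppp1r12a* minus *Ppp1r12b*. Array weights gave *Myh10* 0.12, and repeated quantile normalization gave *Mylk* 0.0425. With the replicate block, 2875 genes passed the thresholds of the study, 1599 of them lower, and 63 passed the adjusted threshold, with 9 pathway genes lower and 3 higher; it changed no call of a member. Leaving out the dimmer part of the rows, below the median of the row means, gave 720 genes, 420 of them lower, and unequal variances gave 2 pathway genes lower. With arrays left out, the genes past the thresholds ranged from 694 to 1540 (397 to 838 lower), and the pathway genes from 1 to 7 lower and from 0 to 5 higher. Of the 12 settings, *Dapk2* passed in 12, *Septin7* in 10 (not without replicate 1 or 2), *Calm2* in 6, *Rhoc* in 4 and *Myo18a* in 2, with log2 fold changes of 0.50 to 1.2 for *Rhoc*, -1.05 to -0.53 for *Calm2* and -0.66 to -0.37 for *Myo18a*. The cause of these changes was not tested. With 4 arrays a group and no detection calls, small changes and those of dim rows such as *Myh14* could not be shown.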
